A study of Mus musculus with 8 samples.

Results

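The genes described here code for proteins of the sarcomere, the contractile unit of striated muscle, and for the proteins that anchor it at the Z-disc and the M-band. They are 32 genes chosen by name out of 33249 in the gene table: 6 of the thin filament, 2 of the thick filament, 3 of the M-band, 14 of the Z-disc, 5 adaptors that bind titin or the Z-disc, and an intermediate filament protein with its chaperone. All 32 were found, and 31 passed the filter on low values, a mean of at least 0.5 FPKM over the 8 libraries. Ankrd2 did not. RNA sequencing was done on mouse myocardium in 4 groups of 2 libraries. CKO mice carried Piezo1 alleles flanked by loxP sites (Piezo1 fl/fl) and the Myh6-MerCreMer transgene, a tamoxifen-inducible Cre driven by a cardiomyocyte promoter. The fl/fl mice were littermates with the same alleles and no Cre. Tamoxifen was given at 4 weeks of age, myocardial infarction (MI) was made by ligating the left anterior descending artery or a sham operation was done at 8 weeks, and the MI hearts were taken at day 42. The time of the sham hearts was not given in the labels. The labels of the sham groups are fl/fl-Sham and CKO-Sham, and those of the infarcted groups fl/fl-MI and CKO-MI. The labels do not say that the libraries of a group came from separate animals, so p-values measure the spread between these libraries, which may be technical.

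In a sarcomere, thin filaments of actin, tropomyosin and troponin slide along thick filaments of myosin, whose heads are modulated by myosin-binding protein C. Thin filaments are anchored at the Z-disc, where alpha-actinin cross-links them and where LIM-domain, PDZ-LIM, myotilin-family and filamin proteins gather. Thick filaments are cross-linked at the M-band by myomesins, and titin spans from one to the other. In the heart, several of these proteins also lie at the intercalated disc, and some of the Z-disc and titin-bound proteins, such as the ankyrin repeat protein of Ankrd1, are well known for rising when the ventricle is loaded.

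The libraries held 73821747 to 88117573 deposited counts. Mitochondrially encoded genes took 43.1 to 46.4% of them after sham surgery and 19.9 to 24.2% after MI, so levels were compared after TMM scaling and are given as CPM, counts scaled to a common library size. The 32 genes took 3.05 to 3.24% of nuclear-encoded counts after sham surgery and 3.52 to 5.56% after MI. Piezo1, the targeted gene, read 72.2, 82.0, 76.7, 88.3, 53.5, 64.8, 56.3 and 64.6 CPM in the order fl/fl-Sham 1, fl/fl-Sham 2, CKO-Sham 1, CKO-Sham 2, fl/fl-MI 1, fl/fl-MI 2, CKO-MI 1, CKO-MI 2, the order used for every list of 8 values here. It was thus not lower in the CKO libraries, and gene-level counts do not separate the floxed exons from the rest. Esr1, part of which is in the Cre fusion, read 8.36, 6.41, 5.52, 7.60, 7.75, 331, 707 and 402 CPM. It went against the labels in both CKO-Sham libraries, which were low, and in one with a control label, fl/fl-MI 2, which was high. Library names below are therefore labels, on which each difference between genotypes depends. That fl/fl-MI 2 library, named Esr1-high here, also held atrial genes: Myl7 read 2129 FPKM there and 4.83 to 28.7 FPKM elsewhere. MI results are given with it, and only where stated also without it. The labelled tissue, myocardium, could be checked by 18 cardiomyocyte genes outside the sarcomere, whose summed level was 5477 to 9357 FPKM in all libraries, and the fast skeletal myosins Myh1, Myh2 and Myh4 were at most 0.17 FPKM.

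The levels per length spread widely. In the sham libraries, mean FPKM was highest for Tcap (893 ± 236, SD, n = 4), Tnnc1 (778 ± 50.8), Tpm1 (542 ± 52.4) and Tnnt2 (477 ± 48.2), which code for telethonin, cardiac troponin C, alpha-tropomyosin and cardiac troponin T. The spreads of Tcap and Tnnc1 overlap, as do those of Tpm1 and Tnnt2. Mybpc3, Cryab, Fhl2 and Des came next at 316 ± 25.2, 311 ± 28.6, 265 ± 17.99 and 252 ± 29.3 FPKM. At the other end, Mybpc2 read 1.40 to 5.53 FPKM, Myom3 0.354 to 0.635 FPKM and Ankrd2 0 to 0.485 FPKM in sham hearts. In the MI libraries Ankrd1 had the highest mean of the 32 genes, 1617 ± 496 FPKM, above Tnnc1 (702 ± 136) and Mybpc3 (706 ± 187).

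**Figure D1:**
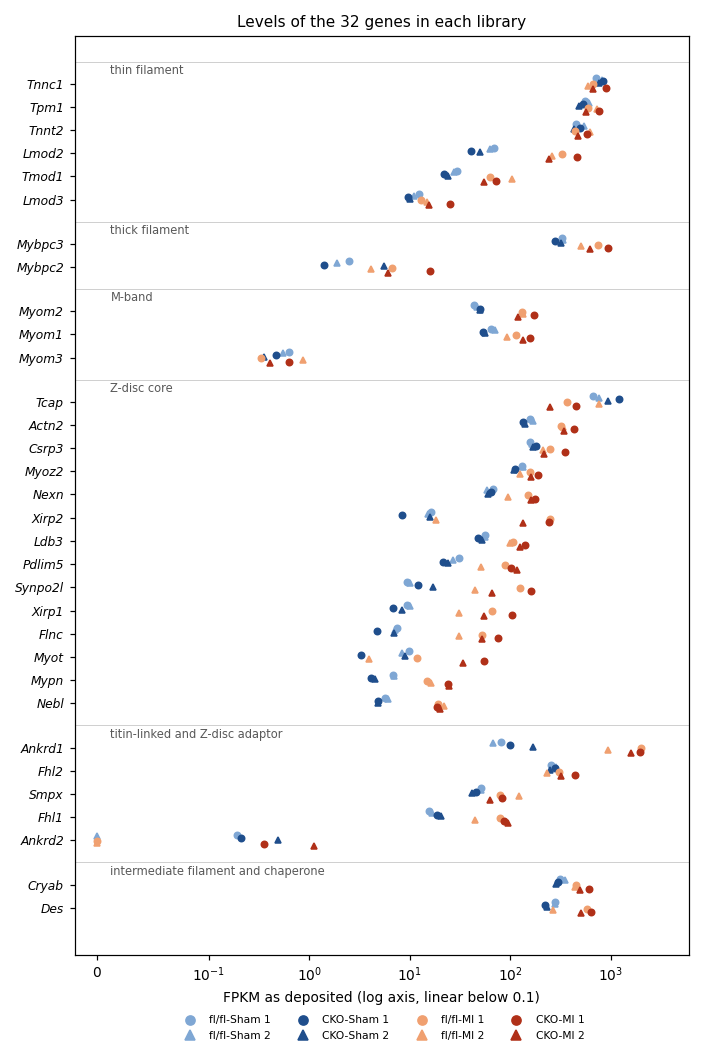
Deposited FPKM of the 32 genes (log axis, linear below 0.1) in each of the 8 libraries, grouped by place in the sarcomere and ordered by mean level. Blue points are sham and orange or red points MI libraries. Ankrd1 lies between 67.9 and 168 FPKM in sham and between 932 and 2011 FPKM in MI libraries, and Ankrd2 is listed at 0 in 3 libraries.

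After MI, 16 of the 31 tested genes rose and 2 fell (adjusted p under 0.05, edgeR quasi-likelihood test, both genotypes together, 4 libraries against 4). Over all 14028 genes tested, 22.0% rose and 18.3% fell. In 14 of the 31 genes every MI library lay above every sham library, and in 2 below (20.9% and 19.5% of all genes). The median log2 fold change was 0.62 for the 31 genes and 0.03 for all genes. Risers were spread unevenly over the structure: 10 of 14 Z-disc genes, 2 of 3 M-band genes, 2 of 4 tested adaptors, 2 of 6 thin filament genes, and none of the 2 thick filament genes or of Des and Cryab. The 2 that fell were Tcap and Tnnc1. Without the Esr1-high fl/fl-MI 2 library, 18 rose and 4 fell, with 26.9% and 23.8% of all genes. In these bulk samples, fewer cells of a type and less RNA per cell cannot be told apart. The 8 fibroblast markers had a median log2 fold change of 1.40, with 7 of 8 rising and their summed level at 173 to 191 FPKM in sham and 370 to 1147 FPKM in MI libraries. The 5 endothelial markers all fell (median -1.48, summed level 194 to 210 against 99.8 to 133 FPKM). Of the 18 cardiomyocyte genes outside the sarcomere, 7 rose and 4 fell. The part of these shifts in the changes below was not tested.

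**Figure D2:**
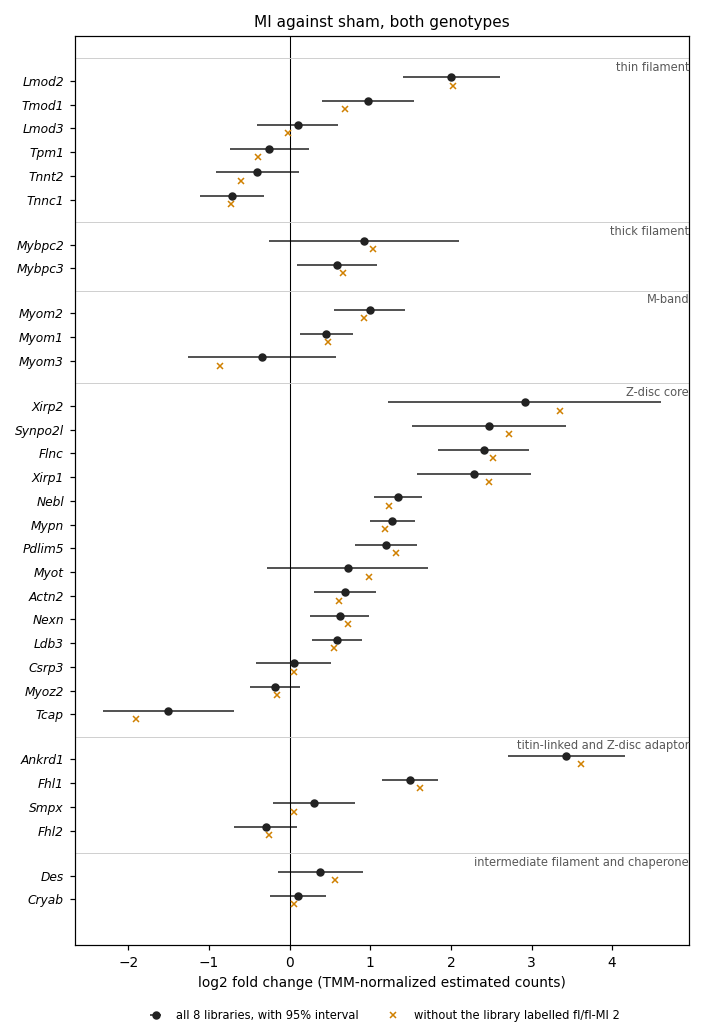
Log2 fold change of MI against sham for the 31 tested genes, on TMM-normalized counts. Black points are the fit to all 8 libraries with 95% intervals, and orange crosses the fit without the Esr1-high fl/fl-MI 2 library. Most of the large changes are in the Z-disc group, where Xirp2, Synpo2l, Flnc and Xirp1 lie above 2 and Tcap lies at -1.51.

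Thin filament genes went in different directions. Lmod2 (chr6:24597762-24605414), which codes for leiomodin 2, an actin nucleator that lengthens cardiac thin filaments from the pointed end, read 176, 152, 100.3 and 125 CPM in sham and 510, 474, 836 and 375 CPM in MI libraries. Every MI library was above every sham library. The log2 fold change was 2.004 (SE 0.26, adjusted p = 0.0017), or 4.01-fold. Tmod1 (chr4:46038935-46116032), the pointed-end capping protein tropomodulin 1, read 150, 132, 108 and 120.2 CPM in sham and 193, 381, 262 and 170.2 CPM in MI libraries. The groups did not overlap, and the highest value was in the Esr1-high fl/fl-MI 2 library. Its log2 fold change was 0.97 (SE 0.24, adjusted p = 0.018), and 0.69 (adjusted p = 0.00995) without that library. Lmod3, a leiomodin better known from skeletal muscle, was not called (0.10, 95% interval -0.40 to 0.60).

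Troponin and tropomyosin genes did not rise on this scale. Tnnc1 (chr14:31208312-31211729), the calcium-binding subunit of troponin, read 970, 1019, 1077 and 1005 CPM in sham and 538, 565, 862 and 541 CPM in MI libraries. The groups did not overlap, with CKO-MI 1 nearest to the sham values. The log2 fold change was -0.71 (SE 0.17, adjusted p = 0.015). Tnnt2 (-0.40, 95% interval -0.92 to 0.12) and Tpm1 (-0.25, -0.74 to 0.24) were not called. Without the Esr1-high fl/fl-MI 2 library, Tnnt2 was called lower (-0.60, adjusted p = 0.027). Deposited FPKM puts these genes elsewhere: on log2(FPKM + 1), the median of all genes moved by 0.41 with MI, Tnnc1 was at -0.16 (adjusted p = 0.34, limma) and Tnnt2 and Tpm1 were above 0, at 0.13 and 0.28. All 3 estimates were thus below the median of all genes on either scale.

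Of the thick filament pair, Mybpc3, the cardiac myosin-binding protein C, had a log2 fold change of 0.59 (95% interval 0.09 to 1.09, adjusted p = 0.061) and passed the threshold without the Esr1-high fl/fl-MI 2 library (0.67, adjusted p = 0.034). Its levels were 1452 to 1781 CPM in sham and 1952 to 3623 CPM in MI libraries, so the groups did not overlap. Mybpc2, the fast skeletal form, read 6.32 to 25.5 CPM in sham and 13.7 to 52.5 CPM in MI libraries, with overlap (0.92, 95% interval -0.26 to 2.10). It remained near 1% of Mybpc3 by FPKM, 0.778% in sham and 1.04% in MI libraries (geometric means).

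At the M-band, Myom2 (chr8:15057653-15133541), which codes for M-protein, read 499, 501, 552 and 570 CPM in sham and 911, 1094, 1396 and 824 CPM in MI libraries. No MI library was as low as a sham library. The log2 fold change was 0.99 (SE 0.19, adjusted p = 0.0066), with 1.003 in fl/fl and 0.98 in CKO. Myom1 (chr17:71002633-71126855), which codes for the myomesin that bridges myosin filaments, read 880, 895, 696 and 740 CPM in sham and 937, 894, 1507 and 1101 CPM in MI libraries. Its groups overlapped, and the Esr1-high fl/fl-MI 2 library was level with fl/fl-Sham 2. It changed by 0.45 on the log2 scale (SE 0.14, adjusted p = 0.038). Myom3, the slow-muscle myomesin, was listed at 0.330 to 0.876 FPKM in every library and was not called (-0.34, 95% interval -1.26 to 0.58). Without the Esr1-high fl/fl-MI 2 library it was called lower (-0.86, adjusted p = 0.0397).

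The largest rises at the Z-disc were in 4 genes for actin cross-linking and repair proteins. Xirp1 (chr9:120013755-120023598) and Xirp2 (chr2:67173834-67526615) code for Xin-repeat proteins that bind actin and sit at intercalated discs. Xirp1 read 76.3, 75.5, 52.4 and 67.0 CPM in sham and 322, 178, 591 and 271 CPM in MI libraries. No libraries overlapped, and the log2 fold change was 2.29 (SE 0.30, adjusted p = 0.0019). Xirp2 read 301, 262, 151 and 290.5 CPM in sham and 2775, 241, 3179 and 1513 CPM in MI libraries. The Esr1-high fl/fl-MI 2 library was inside the sham range, and the other 3 MI libraries were far above every sham library. Its log2 fold change was 2.92 (SE 0.72, adjusted p = 0.017), and 3.36 (adjusted p = 0.00025) without that library.

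Flnc (chr6:29433256-29461883), filamin C, a long actin cross-linker of the Z-disc and of sites of damage, read 90.5, 81.7, 55.9 and 83.8 CPM in sham and 385, 267, 653 and 384 CPM in MI libraries. Its log2 fold change was 2.41 (SE 0.24, adjusted p = 0.00089), or 5.30-fold. Synpo2l (chr14:20658946-20668306), a synaptopodin-family protein that binds alpha-actinin, read 55.9, 56.4, 69.5 and 100.4 CPM in sham and 449, 192, 682 and 238 CPM in MI libraries. Its log2 fold change was 2.47 (SE 0.41, adjusted p = 0.0042). In both genes every MI library was above every sham library, and the lowest MI value was in the Esr1-high fl/fl-MI 2 library.

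Smaller rises were seen in 6 further Z-disc genes. Nebl (chr2:17343909-17731043), nebulette, which links Z-disc and thin filament, read 113, 111, 91.8 and 94.4 CPM in sham and 229, 307, 264 and 238 CPM in MI libraries. The log2 fold change was 1.34 (SE 0.12, adjusted p = 0.00075). Mypn (chr10:63115795-63203952), myopalladin, which binds alpha-actinin and nebulette, read 51.6, 49.1, 29.7 and 33.7 CPM in sham and 68.1, 86.8, 128 and 113 CPM in MI libraries. It rose by 1.27 on the log2 scale (SE 0.12, adjusted p = 0.00074). Pdlim5 (chr3:142239590-142395693), a PDZ-LIM scaffold, read 353, 293, 234 and 269.5 CPM in sham and 617, 416, 837 and 813 CPM in MI libraries. Its rise was 1.19 on the log2 scale (SE 0.16, adjusted p = 0.0021). In all 3 genes the groups stood apart.

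Actn2 (chr13:12269426-12340760), sarcomeric alpha-actinin, read 772, 782, 634 and 677 CPM in sham and 950.2, 1154, 1510 and 1013 CPM in MI libraries (log2 fold change 0.69, SE 0.16, adjusted p = 0.015). Ldb3 (chr14:34526603-34588682), the PDZ-LIM protein ZASP or Cypher, read 439, 413, 366 and 411 CPM in sham and 509.8, 558, 790.2 and 602 CPM in MI libraries (0.58, SE 0.13, adjusted p = 0.013). Neither gene's groups overlapped. Nexn (chr3:152236982-152266318), nexilin, an actin-binding protein, read 337, 274, 304 and 293 CPM in sham and 449, 331, 623 and 485 CPM in MI libraries (0.62, SE 0.15, adjusted p = 0.018). Here the Esr1-high fl/fl-MI 2 library fell below fl/fl-Sham 1.

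Tcap (chr11:98383811-98384953), telethonin, which caps the titin ends at the Z-disc, was the Z-disc gene that fell. It read 819, 877, 1420.2 and 1138 CPM in sham and 269, 667, 390.4 and 185 CPM in MI libraries, with no overlap. This was a log2 fold change of -1.51 (SE 0.34, adjusted p = 0.014), and -1.91 (adjusted p = 0.0013) without the Esr1-high fl/fl-MI 2 library, which was the highest of the MI libraries. On the log2(FPKM + 1) scale it was -1.05 (adjusted p = 0.017, limma). Csrp3 (muscle LIM protein) and Myoz2 (calsarcin-1, which ties calcineurin to alpha-actinin) were not called, at 0.05 (95% interval -0.41 to 0.51) and -0.18 (-0.49 to 0.12). Myot, myotilin, was not called either (0.72, -0.27 to 1.72), and its values are taken up with the genotypes.

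Among the adaptors, Ankrd1 (chr19:36111961-36119910) had the largest change of the 31 genes. Its product is an ankyrin repeat protein that binds the N2A region of titin and also acts in the nucleus. It read 302, 238, 358 and 619 CPM in sham and 4539, 2475, 5181 and 3593 CPM in MI libraries. Every MI library was far above the highest sham library. The log2 fold change was 3.43 (SE 0.31, adjusted p = 0.0007), or 10.8-fold. Fhl1 (chrX:56731787-56793346), a four-and-a-half-LIM protein of the titin N2B complex, read 75.4, 74.7, 86.3 and 97.4 CPM in sham and 230, 154, 294 and 276 CPM in MI libraries. Its log2 fold change was 1.49 (SE 0.15, adjusted p = 0.00087) and its groups did not overlap. The related Fhl2 was not called (-0.29, 95% interval -0.69 to 0.10), nor was Smpx, a small muscle protein on the X chromosome (0.30, -0.20 to 0.81). Ankrd2, the skeletal-muscle relative of Ankrd1, was listed at 0 to 1.10 FPKM.

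Des, desmin, the intermediate filament that joins neighbouring Z-discs, read 1042 to 1345 CPM in sham and 924 to 2185 CPM in MI libraries (0.38, 95% interval -0.15 to 0.91), and was called higher without the Esr1-high fl/fl-MI 2 library (0.57, adjusted p = 0.023). Cryab, the desmin chaperone alpha-B-crystallin, read 538 to 630.1 and 516 to 818 CPM (0.11, -0.24 to 0.46).

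All 18 calls kept their sign when any 1 library was left out, and 10 stayed past the threshold in all 8 such fits: Ankrd1, Fhl1, Flnc, Lmod2, Myom2, Mypn, Nebl, Pdlim5, Synpo2l and Xirp1. The other 8 were lost in at least 1 fit, with adjusted p up to 0.13. Actn2, Ldb3, Myom1, Tmod1, Tnnc1 and Xirp2 were lost without either fl/fl-Sham library or without CKO-Sham 1, Nexn and Tcap without fl/fl-Sham 2 or CKO-Sham 1. Actn2, Myom1, Nexn, Tmod1 and Xirp2 were lost without CKO-Sham 2. Myom1 was also lost without fl/fl-MI 1, and Myom1, Nexn, Tmod1 and Xirp2 without CKO-MI 1. Xirp2 had a log2 fold change of 1.58 in the lowest of these fits. The fits without a sham library or without CKO-MI 1 also called a smaller share of all genes than the full fit.

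The other sarcomere genes, a list of 32 of which 30 were tested, had 16 risers and 5 that fell, with a median log2 fold change of 0.61. The largest rises were in Myh7, the beta-myosin heavy chain (1.72, SE 0.54, adjusted p = 0.042), Ankrd23, another titin-binding ankyrin repeat protein (1.55, SE 0.51, adjusted p = 0.046), and Trim55, a muscle RING-finger ubiquitin ligase (1.46, SE 0.26, adjusted p = 0.0056). The largest falls were in Myl2, the ventricular regulatory light chain (-1.22, SE 0.29, adjusted p = 0.016), Tnni3, cardiac troponin I (-1.19, SE 0.30, adjusted p = 0.020), and Tnnt1, slow skeletal troponin T (-1.12, SE 0.29, adjusted p = 0.021). With the Esr1-high fl/fl-MI 2 library left out, 16 rose and 7 fell. The largest rises were then in Myh7 (2.11), Ankrd23 (1.93) and Nrap (1.58), an actin-binding protein of myofibril assembly, with Trim55 at 1.09, and the largest falls in Tnni3 (-1.58), Tnnt1 (-1.38) and Myh6 (-1.02), the alpha-myosin heavy chain, with Myl2 at -0.996. The changes went with transcript length. Across the 31 genes, Spearman's rho between transcript length and log2 fold change was 0.62, and across all 14028 genes it was 0.25. The points share libraries, and genes are not independent replicates. In transcripts under 1000 bases the median was -0.33 for 4 of the 31 genes and -0.38 for all genes, whereas at 4000 to 8000 bases it was 1.13 for 6 and 0.23 for all genes. Tnnc1 and Tcap, the genes that fell, are both in the shortest class.

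Ratios between related genes within a library do not depend on scaling. Lmod3 was 18.1, 17.2, 23.7 and 20.1% of Lmod2 by FPKM in sham libraries and 3.91, 5.66, 5.47 and 6.43% in MI libraries. The geometric means were 19.6% and 5.28%, and the groups lay far apart. The exact two-sided permutation test gave p = 0.0286, the smallest that 4 against 4 libraries allow, and 0.0857 after adjustment over 6 ratios. Fhl2 was at 1493% of Fhl1 in sham and 431% in MI libraries (geometric means of FPKM ratios, p = 0.0286, adjusted 0.0857, exact permutation test), also without overlap. Myom2 was 66.2 to 93.7% of Myom1 in sham and 88.4 to 145% in MI libraries, which overlapped (p = 0.0857, adjusted 0.171, exact permutation test). Myom3 over Myom1, Mybpc2 over Mybpc3 and Xirp2 over Xirp1 had p of 0.114, 0.4 and 0.686 in the same test, and Ankrd2 over Ankrd1 was not tested because Ankrd2 is listed at 0 in 3 libraries.

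**Figure D3:**
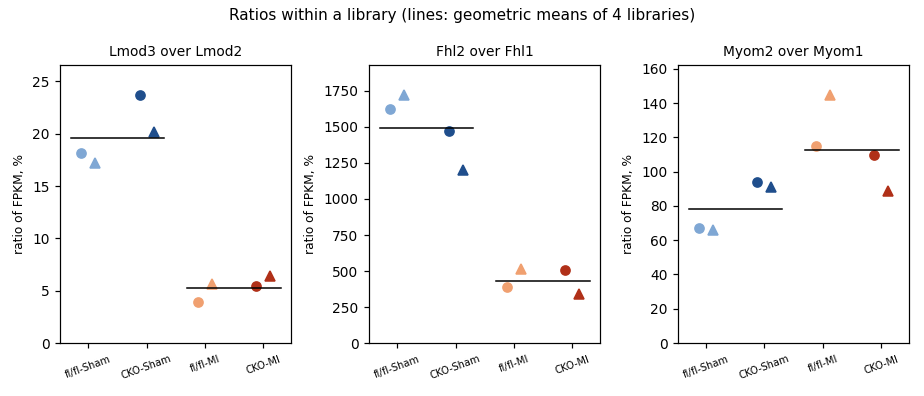
Ratios of FPKM within each library, in percent, for Lmod3 over Lmod2, Fhl2 over Fhl1 and Myom2 over Myom1, with lines at the geometric means of the 4 sham and 4 MI libraries. The first 2 ratios separate sham from MI, and Myom2 over Myom1 does not.

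The transcript table added a further layer. The 32 genes had 175 transcripts, and 38 of them, in 18 genes, held on average 10 to 90% of their gene's summed FPKM and were tested. In 16 the sham and MI libraries did not overlap (p = 0.0286 each, exact two-sided permutation test). None passed an adjusted p under 0.05, which 38 tests at this smallest p reach only if most of them separate. How often the transcripts of all genes separate was not computed, so whether 16 of 38 is unusual was not tested. By gene level, 20.9% of all genes were higher and 19.5% lower after MI without overlap. In Fhl2, Flnc, Myom1, Tpm1 and Xirp1 the separated transcripts moved in opposite directions within the gene, so their tests are not independent. The shares are the authors' estimates of how reads divide between overlapping transcripts. In Mybpc3, Synpo2l, Myot, Myom3, Pdlim5 and Fhl1 they swung widely between libraries of a group and are not described.

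Fhl2, whose gene level was not called, had the widest separation. Its transcripts ENSMUST00000008280 and ENSMUST00000185893 share a coding sequence of 837 bases and differ in the first exon, chr1:43163702-43163961 and chr1:43196651-43196984 on the minus strand, whose starts are 33023 bases apart. The upstream one made up 39.8, 40.9, 29.9 and 36.7% of Fhl2 in sham and 70.3, 78.0, 68.8 and 70.7% in MI libraries, a rise from 36.8% ± 4.9 to 72.0% ± 4.1 (SD, n = 4 each). The downstream one made up 63.2% ± 4.9 and 28.01% ± 4.1. Every MI library was thus on the other side of an even split from every sham library. The sequences around both starts (RefSeq, GRCm38.p6, minus strand) are shown because the estimated shares of the transcripts that begin there changed places. Capitals mark a CArG box, the site of serum response factor, in both, and in the upstream window also an A/T-rich MEF2 site, which overlaps a TATAAA on the other strand.
Fhl2 downstream start, chr1:43163912-43164211: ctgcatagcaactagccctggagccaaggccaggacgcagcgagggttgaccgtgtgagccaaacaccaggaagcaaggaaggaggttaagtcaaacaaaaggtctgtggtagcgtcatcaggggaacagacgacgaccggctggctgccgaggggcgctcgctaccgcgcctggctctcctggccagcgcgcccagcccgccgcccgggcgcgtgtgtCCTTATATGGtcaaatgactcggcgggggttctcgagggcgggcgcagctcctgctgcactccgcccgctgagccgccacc
Fhl2 upstream start, chr1:43196712-43197011: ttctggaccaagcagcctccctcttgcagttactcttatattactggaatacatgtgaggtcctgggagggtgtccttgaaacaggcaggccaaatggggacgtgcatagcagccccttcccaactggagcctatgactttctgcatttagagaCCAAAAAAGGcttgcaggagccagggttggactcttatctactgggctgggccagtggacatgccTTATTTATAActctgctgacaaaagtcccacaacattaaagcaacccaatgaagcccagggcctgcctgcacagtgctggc
The RefSeq start in the downstream window is the first base of the annotated exon, and in the upstream window it lies 223 bases inside the exon of ENSMUST00000185893. The sites marked in the upstream window thus lie within that exon, after the annotated start of its transcript. These letters are matches and not shown to be bound.

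Flnc differed by one exon. ENSMUST00000065090 holds a coding exon of 99 bases that ENSMUST00000101617 lacks, exon 31 of 48, which encodes the first hinge of filamin C. Its share was 40.6, 48.3, 90.3 and 50.4% in sham and 1.63, 37.3, 25.9 and 33.2% in MI libraries. Sham and MI libraries did not overlap, but CKO-Sham 1 and fl/fl-MI 1 stood far from the rest of their groups. Means were 57.4% ± 22.4 and 24.5% ± 15.96, and without CKO-Sham 1 the difference was 21.9 percentage points. The exon is the following, on the plus strand.
Flnc exon 31, chr6:29452799-29452897: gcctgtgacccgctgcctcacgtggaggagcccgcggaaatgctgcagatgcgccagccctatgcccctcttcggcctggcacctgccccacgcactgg

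Myom1 transcript ENSMUST00000073211, with a coding exon of 294 bases that ENSMUST00000179759 lacks, made up 89.5, 89.5, 96.0 and 95.7% in sham and 88.4, 88.3, 60.5 and 87.9% in MI libraries. The separation was narrow apart from CKO-MI 1. Without that library the difference was 4.46 percentage points, against 11.4 with it. The exon is on the plus strand.
Myom1 exon 18, chr17:71082203-71082496: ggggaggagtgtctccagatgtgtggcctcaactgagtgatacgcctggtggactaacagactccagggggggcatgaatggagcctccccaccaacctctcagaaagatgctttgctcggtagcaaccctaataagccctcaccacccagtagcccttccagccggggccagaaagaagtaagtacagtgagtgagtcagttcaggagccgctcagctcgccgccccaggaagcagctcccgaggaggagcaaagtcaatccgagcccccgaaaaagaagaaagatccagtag

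In Tpm1, ENSMUST00000113685 fell from 70.2% ± 1.0 to 61.1% ± 3.3 and ENSMUST00000113687 rose from 25.2% ± 1.3 to 30.3% ± 1.1, in each case without overlap. The first carries a penultimate coding exon of 79 bases, on the minus strand, that the second lacks, so their proteins differ at the C-terminus.
Tpm1 exon 9, chr9:67029664-67029742: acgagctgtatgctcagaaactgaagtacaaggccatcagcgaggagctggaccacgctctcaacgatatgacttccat
In Tnnt2, ENSMUST00000178204, with 16 exons, was at 8.95% ± 0.61 in sham and 16.3% ± 3.2 in MI libraries. The 28-exon transcript of Nebl, ENSMUST00000124270, which codes for full nebulette, rose from 82.6% ± 3.4 to 93.7% ± 1.5. The 5 other genes with separated transcripts were Ankrd1, Cryab, Nexn, Smpx and Xirp1, where shares moved by 6.9 to 10.7 percentage points.

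**Figure D4:**
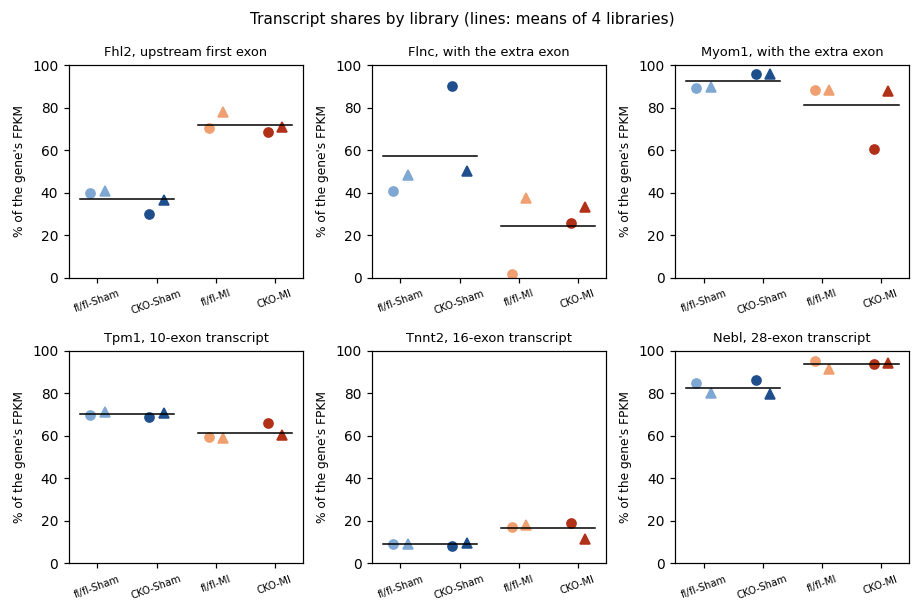
Share of 1 transcript in its gene's summed FPKM, in percent, for 6 genes in each of the 8 libraries, with lines at the means of the 4 sham and 4 MI libraries. Fhl2 shows the clearest change, from 29.9 to 40.9% in sham to 68.8 to 78.0% in MI libraries, while Flnc and Myom1 each have a library far from its group.

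Promoter windows were found for 25 of the 32 genes in the RefSeq table. The hexamer CATTCC, the core of the TEAD site, on either strand, was in at least 1 window of 9 of them (36%) and of 16.6% of all 27025 genes in the table. A CArG box was in 5 (20%, against 1.81% of all genes), a MEF2 site in 6 (24%, against 3.70%) and TATAAA in 5 (20%, against 15.7%). Of the 13 risers with a window, 4 had a CArG box (Fhl1, Ldb3, Myom1 and Nebl), against 1 of the 12 other genes. A MEF2 site was in 2 risers and 4 others, CATTCC in 5 and 4, and TATAAA in 3 and 2. The window of Ankrd1, the gene with the largest rise, holds CATTCC at both capitalized places, on the other strand from the one shown, and is given 5′ to 3′ along the minus strand.
Ankrd1 start, chr19:36119795-36120094: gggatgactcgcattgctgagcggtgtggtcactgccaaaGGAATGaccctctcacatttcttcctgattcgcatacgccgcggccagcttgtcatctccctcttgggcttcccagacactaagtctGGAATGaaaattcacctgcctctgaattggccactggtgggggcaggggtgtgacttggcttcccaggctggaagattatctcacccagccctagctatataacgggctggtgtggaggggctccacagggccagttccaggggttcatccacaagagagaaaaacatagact

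The rises after MI were then compared between genotypes. In fl/fl, 9 of the 31 genes rose and 1 fell, with 10.1% and 8.45% of all genes. In CKO, 15 rose and 1 fell, with 12.8% and 11.9%. Ankrd1, Fhl1, Flnc, Lmod2, Myom2, Mypn, Nebl, Synpo2l and Xirp1 rose in both. Tnnc1 was called lower in fl/fl (-0.85) and Tcap in CKO (-2.15). The medians were 0.35 and 0.89, and the same sign was found in 25 of 31 genes (80.6%), near the 78.3% of all genes. These contrasts share no library. Without fl/fl-Sham 1 or 2 the median in fl/fl was 0.43 or 0.30. In CKO it was 0.82 or 0.96 without CKO-Sham 1 or 2. Leaving out an MI library moved the medians too, in fl/fl to 0.14 (fl/fl-MI 1) or 0.36 (the Esr1-high fl/fl-MI 2). In CKO the median was then 0.56 (without CKO-MI 1) or 1.20 (without CKO-MI 2). In these fits a group of 1 library was assumed to vary like the others. The MI effect was not called different between genotypes in any of the 31 genes (interaction of genotype and MI, 0.0% of all genes called), and 4 had an unadjusted p under 0.05, Mypn, Myot, Pdlim5 and Myom1, with 8.49% of all genes. Mypn differed by 1.303 on the log2 scale (SE 0.23, adjusted p = 0.56) and Myot by 3.15 (SE 0.86, adjusted p = 0.57).

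After MI, none of the 31 genes was called between CKO and fl/fl hearts (edgeR, adjusted p under 0.05), and 0.0% of all genes were. At an unadjusted p under 0.05 there were 5, all higher in CKO-MI, with 8.31% of all genes. DESeq2 called 1, Myot, and 1.48% of all genes. The estimates leaned one way. They were above 0 in 25 of 31 genes, with a median of 0.37, while the median of all genes was -0.01. CKO-MI 1 was the highest of the 4 MI libraries in 25 of 31 genes, against 20.9% of all genes tested, and the Esr1-high fl/fl-MI 2 library the lowest in 15, against 34.5% of all genes. Leaving out CKO-MI 1 left 17 of 31 estimates above 0, with a median of 0.05. There were 28 (median 0.71) without CKO-MI 2, 24 (0.40) without fl/fl-MI 1 and 29 (0.33) without the Esr1-high fl/fl-MI 2 library. Markers of other cells moved beside these genes, none of them called. The 7 macrophage markers were all lower in CKO-MI (median -0.54), with a summed level of 352 and 221 FPKM in fl/fl-MI and 116 and 259 FPKM in CKO-MI. The cardiomyocyte genes outside the sarcomere were higher in 12 of 18 (median 0.21), and in all 18 (median 0.62) once the Esr1-high library was dropped. The fibroblast markers were higher in 5 of 8 with all libraries (median 0.07), and lower in 8 of 8 (median -0.56) without that library. Their part in the lean was not tested.

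Myot had the largest difference. It codes for myotilin, a Z-disc protein that binds alpha-actinin and filamin, and read 112 and 58.6 CPM in CKO-MI against 20.2 and 7.93 CPM in fl/fl-MI hearts, with 9.07 to 28.4 CPM after sham surgery. Both CKO-MI libraries were above all others. The log2 difference was 2.60 (SE 0.63, 95% interval 1.11 to 4.08, adjusted p = 0.50 by edgeR and 0.00091 by DESeq2), and 2.08 (adjusted p = 0.28) without the Esr1-high fl/fl-MI 2 library. The skeletal muscle markers, summed over 13 genes, were 2.98 to 8.54 FPKM in sham and 3.96 to 10.5 FPKM in MI libraries.

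Mypn was 0.63 higher in CKO-MI (SE 0.16, 95% interval 0.25 to 1.02, adjusted p = 0.52), at 113 and 128 CPM against 68.1 and 86.8 CPM. Pdlim5 was 0.67 higher (0.14 to 1.21), Fhl1 0.57 higher (0.09 to 1.05), Myom1 0.51 higher (0.04 to 0.98) and Nexn 0.51 higher (-0.01 to 1.02), with adjusted p of 0.52 to 0.60 for these and Mypn. In each of the 5 genes both CKO-MI libraries were above both fl/fl-MI libraries, which happened in 9 of the 31 genes and, in that direction, in 14.5% of all genes. For the genes with the largest MI effects the intervals of the genotype difference were wide, -0.61 to 1.25 for Ankrd1 and -1.60 to 2.87 for Xirp2. Tcap was 0.70 lower in CKO-MI (-1.83 to 0.43), and 0.10 higher without the Esr1-high fl/fl-MI 2 library.

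In sham hearts none of the 31 genes was called between genotypes either, against 0.00713% of all genes (1 gene). Mypn alone had an unadjusted p under 0.05, with 3.89% of all genes. It was 0.67 lower in CKO-Sham (SE 0.17, 95% interval -1.06 to -0.28, adjusted p = 0.9997), at 29.7 and 33.7 CPM against 51.6 and 49.1 CPM, and was called when only the 4 sham libraries were fitted (adjusted p = 0.039), a fit that called 1.18% of all genes. The estimates were below 0 in 23 genes, with a median of -0.22. CKO-Sham 1 was the lowest sham library in 16 of the 31 genes, against 27.7% of all genes tested, and fl/fl-Sham 1 the highest in 17, against 27.0%. The cardiomyocyte genes outside the sarcomere were also below 0 in 15 of 18, with a median of -0.31, and their part was not tested. Ankrd1 went the other way, 0.86 higher in CKO-Sham (-0.08 to 1.79), with 358 and 619 CPM against 302 and 238 CPM.

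**Figure D5:**
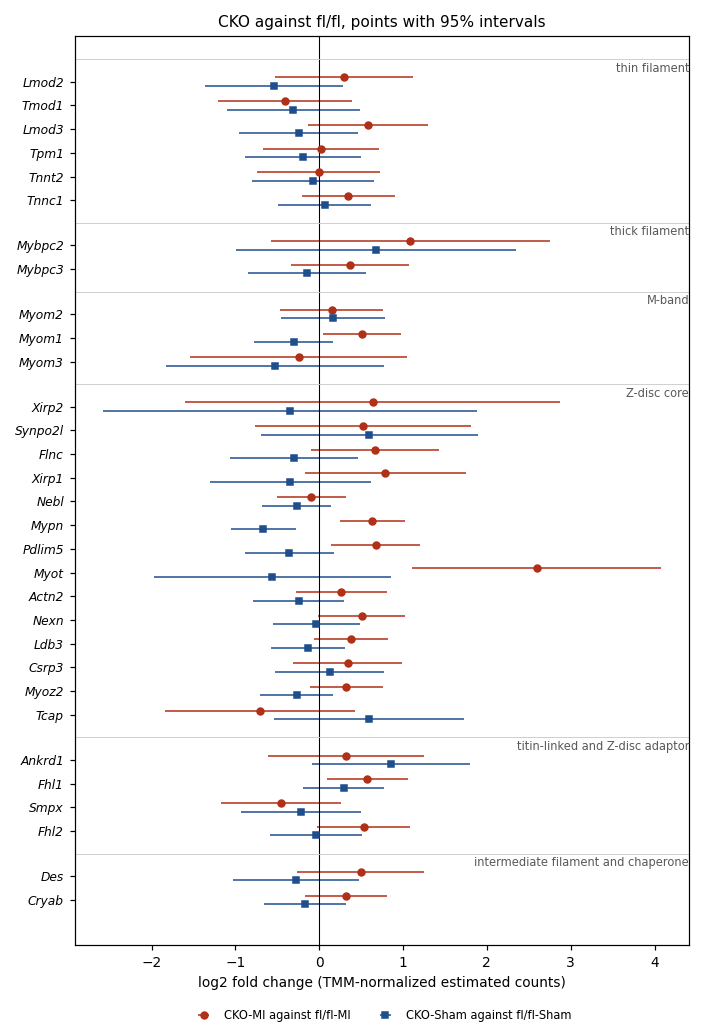
Log2 fold change of CKO against fl/fl after MI (red circles) and after sham surgery (blue squares) for the 31 tested genes, with 95% intervals. Most red points lie to the right of 0 and most blue points to the left, and most intervals include 0. Myot after MI, at 2.60, lies farthest from 0.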

How the data were processed

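Poly(A) RNA of mouse myocardium was sequenced as paired-end reads in 8 libraries. The tools named in the submitters' processing notes are cutadapt 1.9 and FastQC. The aligner, counter and genome build are not given in the sources used here, and the gene coordinates match GRCm38 (GENCODE M21). For each gene and transcript the authors deposited FPKM, which they normalized to length and library size, and whole-number estimated counts without normalization. These counts pile up at multiples of 4, and each gene's value is within 1 of the sum of its transcripts in 100% of 265992 values compared, so they are read as about 4 units per read pair. Whether strand was used in counting is not given.

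Samples were grouped by their labels. Genes whose FPKM averaged 0.5 or more were tested with edgeR 4.0.16 in R 4.3.3 (quasi-likelihood test, TMM), in one fit with a mean per group, and called at a Benjamini-Hochberg adjusted p under 0.05 over all 14028 genes. Log2 fold changes are on the estimated counts. The depth of 73821747 to 88117573 is in these estimated counts, and counting error was not compared with the spread between libraries. Ratios of members and transcript shares were taken within a library from FPKM and tested by exact two-sided permutation with SciPy 1.17.1. The alternatives were DESeq2 1.42.0, limma 3.58.1 on log2(FPKM + 1) and log2(FPKM + 0.1), RLE, nuclear library sizes, TMM without mitochondrial genes, other filters, counts divided by 4, a replicate block, fits of the compared groups alone, a 2-fold rule, and each library left out. The fits were tested on simulated data.

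The 32 genes and the marker lists were chosen with earlier results of these data known. By rule, values by library were given for genes called after MI or between genotypes, and for the 6 with the smallest p in CKO-MI against fl/fl-MI, where none was called, and of the other sarcomere genes up to 3 per direction with the largest called change. Of the lists, no gene of the skeletal muscle (3 of 13 tested) or lymphocyte list (1 of 6) was called after MI. The macrophage list had 2 of 7 higher, the smooth muscle and myofibroblast list 1 of 7 lower, and the atrial list 0 of 5. Without the Esr1-high fl/fl-MI 2 library, which held atrial genes, the median log2 fold change of the atrial list was -0.75, against 2.65 with it. Promoter windows came from RefSeq on GRCm38.p6, exons from GENCODE M21 on GRCm38.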

Additional observations from a re-analysis of the deposited data

How the results depend on the processing

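The count of genes called after MI was 18 of 31 in both genotypes together, with 40.4% of all genes. It was 11 under an unadjusted p under 0.05 with a 2-fold change (16% of all genes). With 1 library left out it was 10 to 22, the lowest without fl/fl-Sham 2 or CKO-Sham 1. Those fits called 23.1% and 23.7% of all genes. The highest count came without the Esr1-high fl/fl-MI 2 library, with 50.7% of all genes. On limma's FPKM scale, where the median of all genes moved by 0.41 with a pseudocount of 1 and 0.56 with 0.1, 25 genes were called higher and 1 lower, against 50.1% and 5.97% of all genes with a pseudocount of 1 and 50.8% and 5.88% with 0.1. In fl/fl the count was 10, against 17 with limma on log2(FPKM + 1) or log2(FPKM + 0.1) (37.5% and 38.8% of all genes). It was 2 when only the compared groups were fitted (Ankrd1 and Lmod2, with 1.42% of all genes). With 1 library left out, the median in fl/fl was 0.14 (without fl/fl-MI 1) to 0.43 (without fl/fl-Sham 1), against 0.35. In CKO the count was 16, with 24.7% of all genes. With 1 library left out it was 0 to 20 (0 without CKO-Sham 1, 6 without CKO-Sham 2, 8 without either fl/fl-Sham library, 10 without CKO-MI 1). The share of all genes was 13.5% without either fl/fl-Sham library, and it was also below 24.7% in the other fits named here. The count of 20 came without fl/fl-MI 1 or fl/fl-MI 2, with 41% and 41.3% of all genes.

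CKO-MI against fl/fl-MI gave no call, against 1 with DESeq2 (1.48% of all genes) and 1 under the 2-fold rule (3.21%), Myot in both, and 0 to 4 with 1 library left out. The interaction gave no call, against 2 with DESeq2 (Mypn and Myot, with 0.934% of all genes), 3 under the 2-fold rule (4.10%), and 0 to 4 with 1 library left out. The 4 came without fl/fl-MI 1 in both: Fhl1, Xirp2, Pdlim5 and Myot after MI, and Mypn, Pdlim5, Xirp2 and Myot for the interaction, when the library labelled fl/fl-MI 2 stands alone for its group. That fit called 11.9% of all genes after MI and 5.35% for the interaction. CKO-Sham against fl/fl-Sham gave 1 call, Mypn, when only the sham groups were fitted, and none with any library left out.

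Estimates that changed sign were of genes not called. With limma on log2(FPKM + 1) and log2(FPKM + 0.1), Tnnt2 was at 0.13 in both, Tpm1 at 0.28 in both, Myoz2 at 0.37 in both, Fhl2 at 0.25 in both, and Myom3 at 0.048 and 0.088. Csrp3 was at -0.031 with only genes averaging 5 FPKM or more. With 1 library left out, Csrp3 ranged from -0.24 (without CKO-MI 1) to 0.22, Lmod3 from -0.19 (without CKO-MI 1, and -0.014 without fl/fl-MI 2) to 0.28, Cryab from -0.060 (without CKO-MI 1) to 0.21, and the log2 ratio of Xirp2 to Xirp1 from -0.072 (without fl/fl-MI 1) to 0.82. The cause was not tested, apart from the shift of all genes given for FPKM.

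The replicate numbers were not shown to pair the libraries. Deviations of same-numbered libraries from their group means correlated at -0.14 to 0.06. With the number as a replicate block, 15 genes rose and 2 fell after MI (19.6% and 16.7% of all genes). In fl/fl 7 rose and 0 fell (6.29% and 5.75%), and in CKO 12 rose and 1 fell (9.89% and 9.2%). The genotype comparisons and the interaction gave 0 calls (0% of all genes).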
